A study of Mus musculus with 10 samples.

Results

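The secreted fat-digesting proteins of the exocrine pancreas were followed through 6 genes: Pnlip, Pnliprp1, Pnliprp2, Clps, Cel and Pla2g1b. They were chosen by name, and each was represented by the transcript cluster (the set of array probes summarised as 1 value) that the platform annotation assigned to that gene alone. Of the 6 genes, 5 had such a cluster, each exactly 1, among 19938 genes with a cluster of their own; Pnlip was not analysed here. RNA of mouse pancreas from 10 samples of mixed strain background was measured on Affymetrix Mouse Gene 1.0 ST arrays, 1 array per sample. The control group (n = 5) carries no genotype in its labels beyond the word control, so whether it carried Cre or any of the alleles is not known. The DKO group (n = 5) had the genotype PDX1Cre, Mst1-/-, Mst2L/L, and its description calls the loss of these Hippo kinases specific to the pancreas. As the genotype is written, however, Mst1 is null in every cell, while floxed Mst2 is lost only in cells that have made Cre from Pdx1 regulatory sequence, and in their descendants; these include the pancreatic epithelium. Age and sex are not given in the labels, nor whether each sample is a different animal. The p-values therefore rest on sample-to-sample spread that may be technical.

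Acinar cells store digestive enzymes in zymogen granules and release them into the duct when a meal stimulates them. Pancreatic triglyceride lipase, encoded by Pnlip, splits dietary triglycerides, and colipase, encoded by Clps, is the small cofactor that anchors it to fat droplets coated with bile salts. Pnliprp1 and Pnliprp2 encode close relatives of this lipase; the Pnliprp2 protein also splits galactolipids and phospholipids and is important for fat digestion in suckling animals, whereas little lipase activity is known for the Pnliprp1 protein. Cel encodes the bile salt-activated carboxyl ester lipase, which splits cholesteryl esters and retinyl esters, and Pla2g1b the pancreatic phospholipase A2, which is secreted as an inactive precursor and activated by trypsin.

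Levels are log2 intensities as deposited, where a difference of 1 is a doubling of the signal. The median cluster value of an array was 7.12 to 7.15, its maximum between 13.77 and 13.94, and every pair of arrays correlated over clusters with r of at least 0.982. The labelled tissue was checked on acinar markers, all 9 of which were measured; their mean level was 12.35 to 12.56 in control arrays and 11.83 to 12.33 in DKO arrays. One DKO array, replicate 1, stood apart in hepatocyte markers, which averaged 11.70 there (9 of 10 listed genes measured) against 7.07 to 8.09 in control and 6.91 to 8.11 in the other DKO arrays. Some results are therefore also given without that array, and those given only with it may depend on it.

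In the RefSeq gene order of assembly GRCm38.p6 Pnliprp1 and Pnliprp2 are direct neighbours, with Pnlip close by, in tandem on the same strand of chromosome 19. Cel, Clps and Pla2g1b lie on chromosomes 2, 17 and 5. The 250 bases before the annotated start of 3 of the genes are shown because they stand for the patterns described below. Pnliprp2 differed most between the groups, and Pnliprp1 is its neighbour. Of the other measured lipase and colipase genes, Cel, on another chromosome, had the highest r with each of them over the 10 arrays. The sequences are from RefSeq, on the strand of the gene, 5′ to 3′; 5 of the 6 genes were in that table, and Clps was not. Capitals mark CACCTG on either strand and TGGGAAA on either strand, the E-box and the TC-box that the acinar transcription complex PTF1 is known to bind, and AAGGTCA on either strand, the recognition sequence of the nuclear receptor NR5A2. The windows are chr19:58759473-58759722 (plus strand), chr19:58728637-58728886 (plus strand) and chr2:28563404-28563653 (minus strand), GRCm38.p6.
Pnliprp2: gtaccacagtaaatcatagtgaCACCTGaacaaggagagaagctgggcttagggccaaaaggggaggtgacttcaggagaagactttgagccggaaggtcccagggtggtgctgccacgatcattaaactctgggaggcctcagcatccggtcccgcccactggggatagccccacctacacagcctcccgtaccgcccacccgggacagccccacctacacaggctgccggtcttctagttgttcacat
Pnliprp1: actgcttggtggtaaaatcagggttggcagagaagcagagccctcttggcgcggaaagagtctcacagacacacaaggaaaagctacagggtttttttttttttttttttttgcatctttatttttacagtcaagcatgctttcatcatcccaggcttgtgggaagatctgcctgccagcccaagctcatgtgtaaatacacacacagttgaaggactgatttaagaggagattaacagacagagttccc
Cel: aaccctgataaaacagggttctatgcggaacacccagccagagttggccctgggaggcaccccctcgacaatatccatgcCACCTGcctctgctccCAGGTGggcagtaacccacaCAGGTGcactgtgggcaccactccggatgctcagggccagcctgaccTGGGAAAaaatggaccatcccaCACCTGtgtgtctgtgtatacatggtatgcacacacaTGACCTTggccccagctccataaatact
The Cel window held CACCTG or its reverse complement 4 times, at -170 to -165, -154 to -149, -134 to -129 and -65 to -60 relative to the start, TGGGAAA once at -87 to -81, and AAGGTCA once, on the other strand, at -28 to -22. The Pnliprp2 window held CACCTG once, at -228 to -223, and neither of the other motifs. The Pnliprp1 window held none of the 3 motifs, although it held 2 matches to the looser E-box CANNTG, of which CACCTG is a special case. Pla2g1b and Pnlip held none of the 3 either, and of the 5 genes in the table only Pnlip held TATAAA on the gene's strand, at -30 to -25. Over all 32851 promoter windows of this length, from 27025 genes, CACCTG was found in 17.2%, TGGGAAA in 6.82%, AAGGTCA in 4.08%, CANNTG in 66.2% and TATAAA in 7.59%. A match is a description of the letters in the window and not evidence of binding.

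The comparison asked whether these genes differed between control and DKO pancreas. All 5 measured genes had a lower mean in DKO, but 0 of 5 passed an adjusted p of 0.05 by limma (moderated two-sided test, Benjamini-Hochberg adjustment over all genes tested), against 2.44% of all genes (487 of 19938; 2.08% higher and 0.366% lower in DKO). At an unadjusted p of 0.05 there was 1 of 5, Pnliprp2, against 14.8% of all genes (5.66% lower in DKO). The median change of the 5 was -0.07 on the log2 scale, against -0.00639 over all genes, of which 52.4% were lower in DKO. Groups did not overlap in 1 of the 5, again Pnliprp2, against 4.80% of all genes in either direction and 1.28% with every DKO array below every control array.

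Among the lipases proper, Pnliprp2 showed the widest separation. Control arrays 1 to 5 gave 13.15, 13.20, 13.21, 13.16 and 13.15, and DKO arrays 1 to 5 gave 12.41, 12.87, 13.03, 12.82 and 12.96. All 5 DKO arrays lay below all 5 control arrays, and the lowest was DKO replicate 1, the array with high hepatocyte markers. The mean was 13.17 ± 0.026 in control and 12.82 ± 0.24 in DKO (SD, n = 5 each), a log2 change of -0.36 ± 0.10 (SE; 95% interval -0.58 to -0.14), or 1.28-fold lower signal. This did not pass the threshold over all genes (limma adjusted p = 0.104, unadjusted p = 0.00442). Without DKO replicate 1 the change was -0.25 with a smaller error (SE 0.055, limma adjusted p = 0.0525), and the adjusted p ranged from 0.0525 to 0.229 over all alternatives tried. In bulk tissue fewer acinar cells cannot be told apart from less RNA per cell. The DKO arrays also differed more among themselves: the SD of Pnliprp2 was 9.30 times as large in DKO as in control, which put it at the 88.6 percentile of all genes in DKO and at the 1.27 percentile in control. Much of this spread came with DKO replicate 1: over the other 4 DKO arrays the SD was 0.094, 3.63 times that of control and at the 35.1 percentile of all genes.

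Pnliprp1, the neighbouring gene, stood at 13.46, 13.43, 13.45, 13.44 and 13.45 on control arrays 1 to 5. On DKO arrays 1 to 5 it stood at 13.34, 13.35, 13.44, 13.41 and 13.42. The first 2 of these DKO arrays were the lowest, and only the third overlapped the controls. The means were 13.44 ± 0.012 and 13.39 ± 0.043 (SD, n = 5 each), a log2 change of -0.05 ± 0.04 (SE; 95% interval -0.14 to 0.04; limma adjusted p = 0.587). The difference did not pass the test, and its interval reaches from a decrease of 0.14 to an increase of 0.04. It was -0.04 without DKO replicate 1 (limma adjusted p = 0.668).

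The ester lipase gene Cel had values of 13.41, 13.40, 13.41, 13.40 and 13.43 on control arrays 1 to 5. The DKO arrays, in the same order, had 13.27, 13.31, 13.39, 13.35 and 13.40. The first 2 DKO arrays were again the lowest, 4 of 5 lay below every control array, and the fifth was level with the lowest control. The means were 13.41 ± 0.015 and 13.34 ± 0.053 (SD, n = 5 each), a log2 change of -0.07 ± 0.04 (SE; 95% interval -0.16 to 0.03; limma adjusted p = 0.495). The change was -0.05 without DKO replicate 1 (limma adjusted p = 0.587).

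Clps, the colipase gene, read 13.62, 13.68, 13.69, 13.70 and 13.65 on control arrays 1 to 5, and 13.63, 13.60, 13.64, 13.62 and 13.62 on the DKO arrays. The groups overlapped through control replicate 1, the lowest control. The log2 change was -0.05 ± 0.04 (SE; 95% interval -0.13 to 0.04; limma adjusted p = 0.623), from 13.67 ± 0.035 to 13.62 ± 0.016 (SD, n = 5 each). The Clps cluster had the 2nd highest of the 19938 gene values on every one of the 10 arrays, between 0.02 and 0.10 below the array's maximum over the genes tested.

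Pla2g1b, the phospholipase gene, varied far more from array to array than the others, and in both groups alike. On control arrays 1 to 5 the values were 11.29, 11.35, 11.58, 10.84 and 10.45, and on DKO arrays 1 to 5 they were 11.32, 10.20, 11.34, 10.83 and 10.95. Control replicate 5 and DKO replicate 2 were the lowest, control replicate 3 was the highest, and the groups overlapped almost fully. The means were 11.10 ± 0.45 and 10.93 ± 0.47 (SD, n = 5 each), a log2 change of -0.17 ± 0.25 (SE; 95% interval -0.72 to 0.38; limma adjusted p = 0.772). Without DKO replicate 2 the change was 0.01. These SDs stood at the 98.3 percentile of all genes in control and the 97.5 percentile in DKO, and the 10 arrays spanned 1.38.

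**Figure D1:**
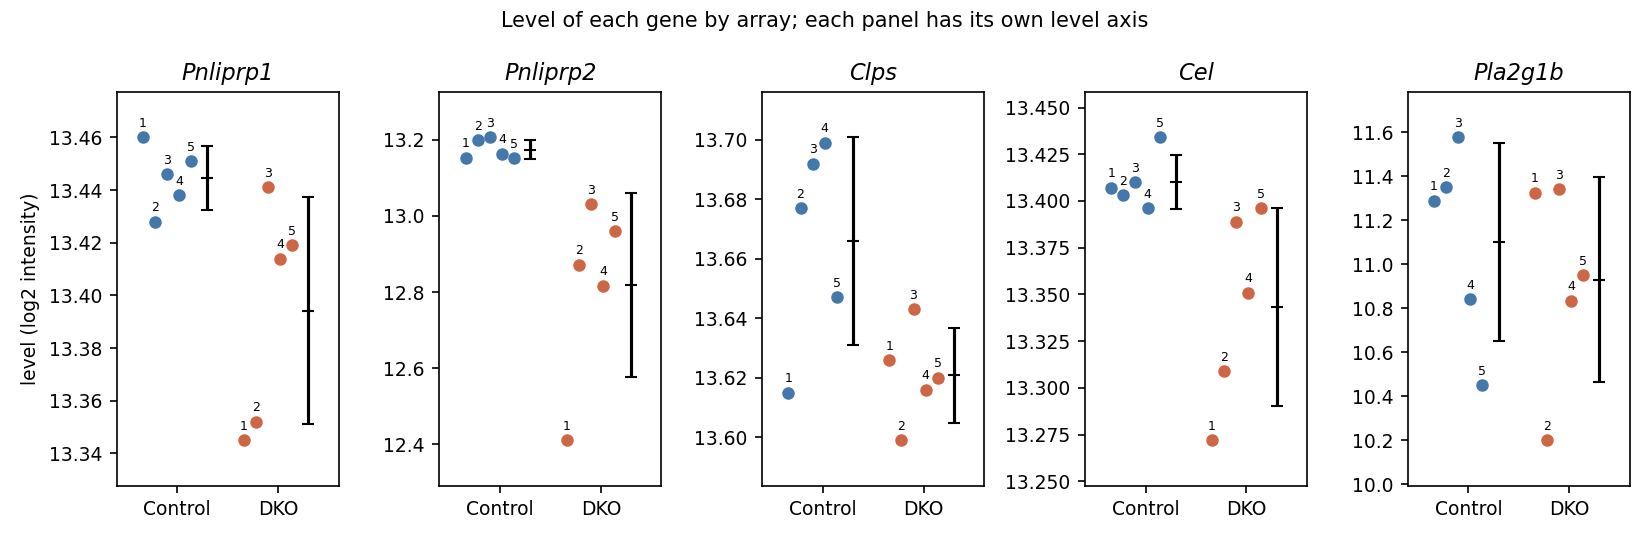
Level of each gene (log2 intensity, vertical axis, a separate scale per panel) in the 5 control (blue) and 5 DKO (orange) arrays; numbers are replicates, and the bar beside each group is its mean ± SD. The groups are apart in Pnliprp2 (control 13.15 to 13.21, DKO 12.41 to 13.03), close together on a narrow scale in Pnliprp1, Clps and Cel, and mixed in Pla2g1b.

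The position of these genes on the scale bears on how their changes can be read. Pnliprp1, Clps and Cel belonged to the 27 genes with a mean level of 13 or more, where the median control SD was 0.0276 against 0.109 over all genes and 85.2% were lower in DKO. The control SDs of Pnliprp1 and Cel were at the 0.0752 and 0.171 percentile of all genes. Whether the brightest signals were compressed at the top of the scale was not tested. Because limma draws such small variances towards those of all genes, the SE of Pnliprp1 was 0.0405 in the fit and 0.0201 when variances were not moderated. Without moderation 4 of the 5 genes (all but Pla2g1b) had an unadjusted p under 0.05, still with 0 of 5 past the adjusted threshold (lowest adjusted p 0.189). Among the 156 genes with a mean level of 12 or more, Pnliprp2 had the 5th largest decrease in mean, 102 were lower in DKO, 11 had all DKO arrays below all control arrays, and 1 was lower and past the test.

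**Figure D2:**
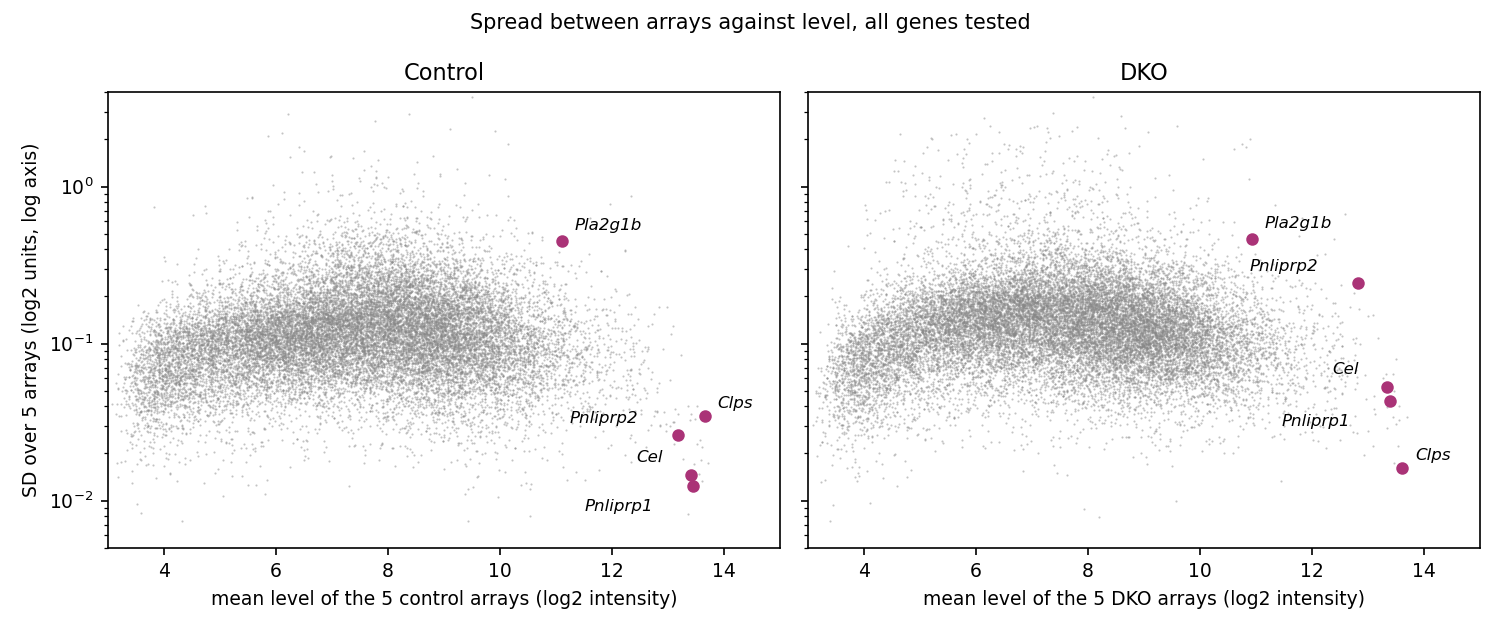
SD over the 5 arrays of a group (log axis) against the mean level of that group (log2 intensity), for all 19938 genes (grey) and the 5 lipase and colipase genes (purple), in control (left) and DKO (right). Pnliprp1, Pnliprp2, Clps and Cel sit at the bright, low-spread end in control; in DKO Pnliprp2 is at an SD of 0.24 (0.094 without DKO replicate 1), while Pla2g1b is high in both groups (0.45 and 0.47).

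Whether the genes changed by different amounts was tested on differences within each array, with Pnliprp1 as reference. That reference was chosen after the values were seen, since the intended one, Pnlip, was not analysed, so the result is not independent of the pattern above. Pnliprp1 was also nearly constant, with a control SD of 0.012, and lay 0.23 to 0.39 below the array maximum; the contrast of Pnliprp2 therefore largely restates that its own groups do not overlap, and compression of the reference at the top of the scale was not tested. Relative to Pnliprp1, the log2 change of Pnliprp2 in DKO was -0.31 (exact two-sided permutation p = 0.00794, the smallest that the 252 splits allow; 0.0317 adjusted over 4 contrasts). The within-array difference was -0.27 ± 0.035 in control and -0.58 ± 0.21 in DKO (SD, n = 5 each). When any 1 control array was left out, the adjusted p of this exact test was 0.0635, past the threshold no longer. When any 1 DKO array was left out instead, it stayed at 0.0317. Leaving out 1 array makes the groups unequal and changes the p-values that this test can give. The step from 0.0317 to 0.0635 therefore does not measure how much the result rests on control arrays. Clps (0.01, exact permutation p = 0.841), Cel (-0.02, p = 0.190) and Pla2g1b (-0.12, p = 0.659) did not differ from Pnliprp1 past the threshold by the same test. These contrasts compare changes and not levels.

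The genes that most resembled each member over the 10 arrays were listed by Pearson r, as a description: the best of all genes is reported, all points share the same arrays, and the group difference contributes. Pnliprp2 followed Zg16, a zymogen granule protein (r = 0.993, and 0.983 for deviations from the group means), Rnase1, the pancreatic ribonuclease (r = 0.956), and Serpini2, a serpin of the pancreas (r = 0.954). Zg16 was 13.05 to 13.12 in control and 12.55, 12.88, 12.95, 12.88 and 12.95 in DKO replicates 1 to 5, so its DKO arrays too lay below all controls, with replicate 1 the lowest. None of the 3 passed the limma test (log2 changes -0.24, -0.18 and -0.42; adjusted p = 0.136, 0.244 and 0.219). The similarity of Pnliprp2 to Zg16 was 0.980 after the 2 arrays farthest from the Pnliprp2 median, DKO replicates 1 and 4, had been left out.

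Cel and Pnliprp1 shared their closest gene, Eef2k, the kinase of a translation elongation factor (r = 0.966 with Cel and 0.991 with Pnliprp1). Pnliprp1 was itself the 3rd closest gene to Cel (r = 0.948; 0.714 without DKO replicates 1 and 2), after Prdx4, a peroxidase of the endoplasmic reticulum (r = 0.959). Tmed3, a cargo receptor of the early secretory pathway (r = 0.964), and Rps4x, a ribosomal protein gene (r = 0.960), came next for Pnliprp1. Pnliprp2 had an r of 0.911 with Cel and of 0.845 with Pnliprp1 (0.820 and 0.699 for deviations from the group means). These values include DKO replicate 1, the lowest array for all 3 genes, and were not computed without it. The order differed within the control arrays. Control replicate 1 was the highest array for Pnliprp1 (13.460) but gave 13.153 for Pnliprp2. Control replicate 5 was the highest for Cel (13.434) but the lowest control for Pnliprp2 (13.151). For Pnliprp1 and Cel, arrays DKO 1 and 2 were the lowest and thus entered strongly into their similarity.

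Pla2g1b followed a different set, Sharpin (r = 0.930), Sycn, which encodes the zymogen granule protein syncollin (r = 0.924), and Slc25a12, a mitochondrial carrier of aspartate and glutamate (r = 0.901). With the other 4 genes of the group its r lay between 0.0794 (Pnliprp2) and 0.408 (Clps). The genes closest to Clps were the DNA repair gene Neil2 (r = 0.969), Zfp871 (r = 0.959) and Chrna2, a nicotinic receptor subunit (r = 0.940), none of them a digestive enzyme, over a total Clps range of 0.10.

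**Figure D3:**
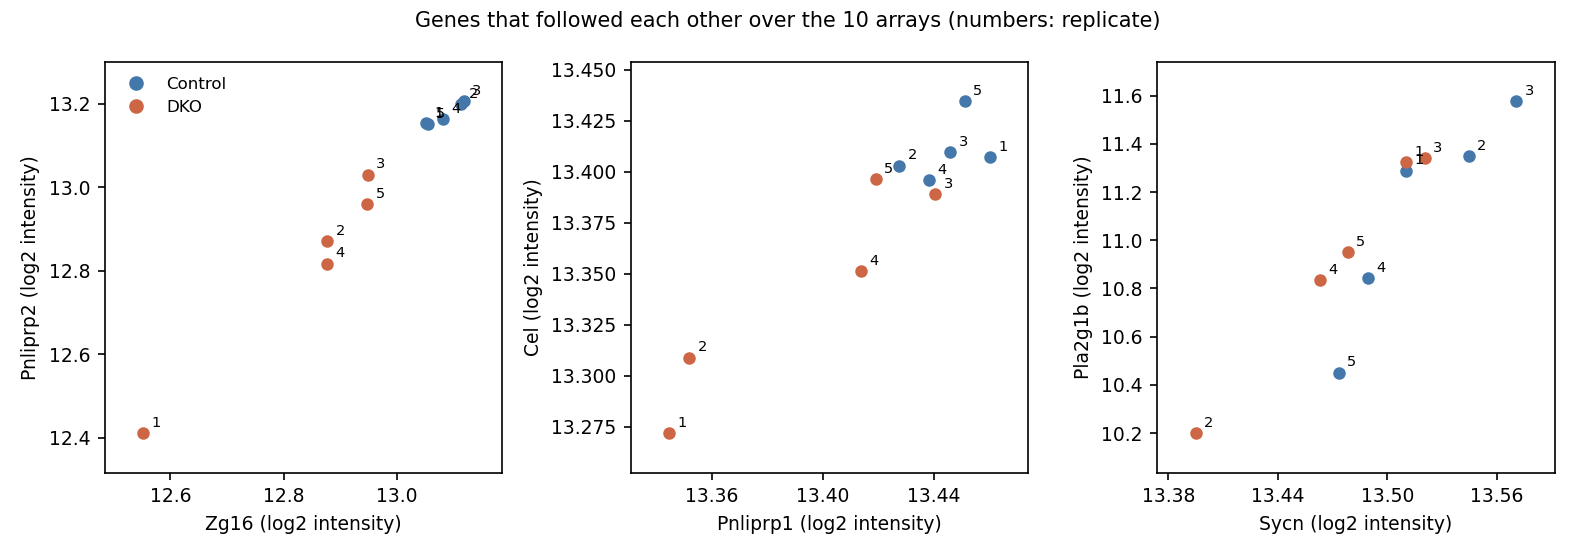
Levels (log2 intensity on both axes) of Pnliprp2 against Zg16, Cel against Pnliprp1 and Pla2g1b against Sycn in the 10 arrays; blue is control, orange DKO, numbers are replicates. Pnliprp2 and Zg16 lie along 1 line from DKO replicate 1 (12.41 and 12.55) to the controls, Cel and Pnliprp1 are pulled down by DKO replicates 1 and 2, and in the last panel control and DKO arrays are mixed.

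The other secreted enzymes of the acinar cell were counted in the same way. Of 20 listed proteases, amylases and ribonucleases 14 were measured, 0 passed limma (6 at an unadjusted p of 0.05), and 13 had a lower mean in DKO, with a median change of -0.09 against -0.07 for the 5 lipase and colipase genes. All DKO arrays lay below all control arrays in 4 of the 14, against 1.28% of all genes. Over all genes 14.8% had an unadjusted p under 0.05 and 52.4% had a lower mean in DKO. Of the 156 genes with a mean level of 12 or more, 65.4% had a lower mean in DKO. All DKO arrays lay below all control arrays in 7.05% of these 156. The smallest limma p-values among the 14 were those of Cela3a (-0.20 ± 0.05 SE, adjusted p = 0.0726) and Cela1 (-0.32 ± 0.12 SE, adjusted p = 0.232), a pair of elastases whose family members may share probes. The Cela3a cluster was far dimmer, with a control mean of 7.97 against 12.85 for Cela1. The mean of the list was 12.49 to 12.83 in control arrays. Cela3a passed the threshold after quantile normalization again (limma adjusted p = 0.0353) and without the dimmest 50% of genes (0.0462), and in none of the other alternatives. The changes of the 14 ran from -1.94 for Ctrc, the chymotrypsin C gene, to 0.03 for the trypsinogen gene Try5, both named after their values were seen. Ctrc did not pass (adjusted p = 0.334), with a control SD of 2.26. The difference between the lists was not tested.

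**Figure D4:**
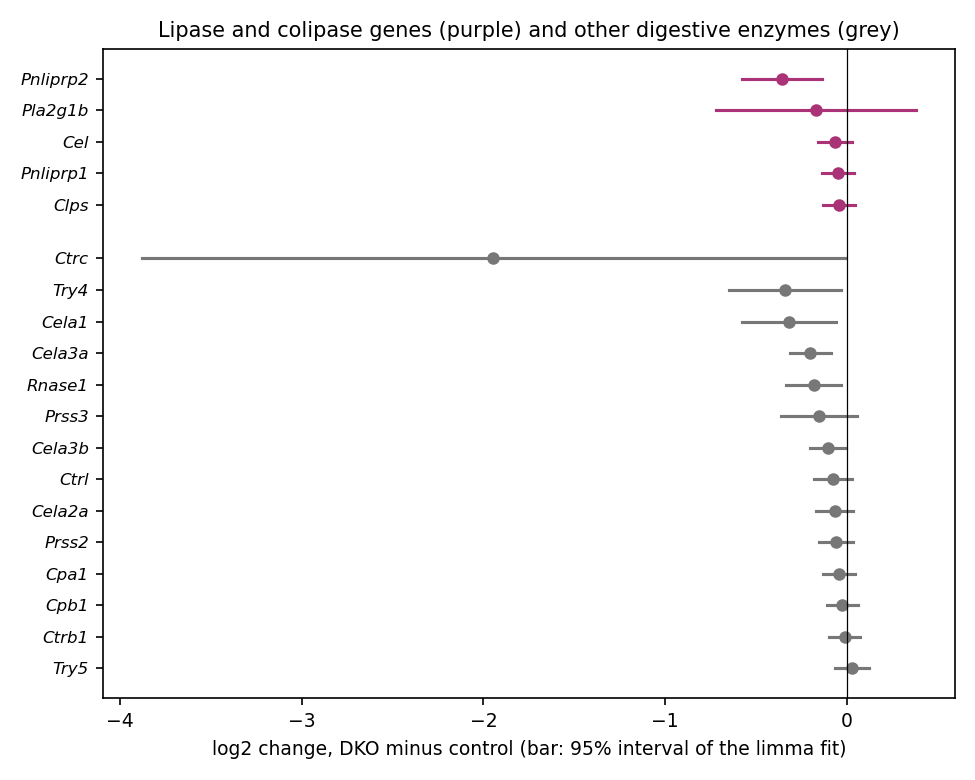
Log2 change, DKO minus control, of the 5 lipase and colipase genes (purple) and 14 other digestive enzymes (grey); points are estimates and bars the 95% intervals of the limma fit. Of the purple intervals, that of Pnliprp2 (-0.58 to -0.14) excludes 0 without adjustment for the number of genes; nearly all grey points are also left of 0.

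Markers of acinar and of duct cells were compared in the same arrays. Of 9 acinar markers 1 fell past the threshold, against 0.366% of all genes. It was Rbpjl, a subunit of PTF1 (log2 change -0.45 ± 0.09 SE, limma adjusted p = 0.0225). All 9 had a lower mean in DKO (median -0.32), and 4 of the 9 had an unadjusted limma p under 0.05, against 14.8% of all genes. In 3 of the 9 every DKO array lay below every control array, against 1.28% of all genes. The mean of this list was 11.83 in DKO replicate 1 and 12.13 to 12.33 in the other DKO arrays. Among the fits without a replicate block, the Rbpjl call ended when control array 3 (adjusted p 0.0689), control array 5 (0.0608) or DKO array 4 (0.0562) was left out, and with unmoderated variance (0.0664); without DKO array 1 the change was -0.37 (0.0134). Rbpjl was also the 1 of 11 measured acinar transcription factors that passed, with a median change of -0.11 in that list. In that list 4 of the 11 had an unadjusted limma p under 0.05, and 6 of the 11 had a lower mean in DKO. Of 6 measured duct markers 3 rose, the keratin genes Krt7 (1.22) and Krt19 (0.41) and the claudin gene Cldn4 (1.37; adjusted p = 0.00112, 0.0155 and 0.00227), and the mean of the list was 9.48 to 9.66 in control and 9.99 to 10.18 in DKO. Over all genes 2.08% were higher in DKO and past the threshold. The other 3 measured duct markers did not pass, and 2 of the 6 had a lower mean in DKO, with -0.26 the most negative change. In 1 of the 6 every DKO array lay below every control array, against 1.28% of all genes. At an unadjusted limma p of 0.05 there were 5 of the 6, against 14.8% of all genes. The part of these shifts in the Pnliprp2 values was not tested. All 7 measured islet markers also had a lower mean in DKO, and the mean of that list was 11.50 to 11.67 in control and 11.36 to 11.42 in DKO, without overlap. None of the 7 passed the limma test (2 at an unadjusted p of 0.05); the smallest p-values were those of Iapp, the islet amyloid peptide gene (-0.32, adjusted p = 0.0971), and Chga, the chromogranin A gene (-0.31, adjusted p = 0.134), and in Chga every DKO array lay below every control array. The part of the islet shift in the lipase values was not tested either. None of the measured hepatocyte (9), adipocyte (6), gut (7), stomach (6), leukocyte (7) or fibroblast (7) markers passed the same test, with 1 leukocyte marker and 0 of the others at an unadjusted p of 0.05. Adipocyte markers averaged 8.09 to 8.58 in control and 6.94 to 9.58 in DKO, highest in DKO replicate 2, where Pla2g1b and Clps were at their lowest; its part in those values was not tested.

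The wider set of fat-digesting and lipid-splitting genes included 3 genes that rose. Of 5 measured relatives in the lipase gene family (Lpl, Lipg, Liph, Lipi and Pla1a) 2 rose, against 2.08% of all genes. Pla1a, a phosphatidylserine-specific phospholipase, rose by 2.69 ± 0.09 (SE), from 7.01 ± 0.092 to 9.70 ± 0.20 (SD, n = 5 each), with a limma adjusted p of 1.86e-07, and Liph, which makes lysophosphatidic acid, rose by 0.62 ± 0.14 (SE, adjusted p = 0.0446). The Liph call ended in 12 of 21 alternatives, with the adjusted p running from 0.0271 to 0.163. The median change of these 5 relatives was -0.04; the other 3, Lpl (-0.04), Lipg (-0.05) and Lipi (-0.05), did not pass. Of 11 secreted phospholipase A2 genes, with the receptor Pla2r1, 1 rose, against 2.08% of all genes. It was Pla2g5, the group V enzyme, by 1.60 ± 0.18 (SE, limma adjusted p = 0.00111), from 7.01 ± 0.23 to 8.61 ± 0.39 (SD, n = 5 each). The pancreatic enzyme gene Pla2g1b thus had a mean change of -0.17 that did not pass, while Pla2g5 of the same enzyme family rose; the difference between them was not tested.

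Among 9 genes of lipase folding (such as the lipase maturation factor Lmf1) and of receptors for the hormones and transmitters that trigger enzyme release, 0 passed limma (1 at an unadjusted p of 0.05) and the median change was -0.07. The smallest p-values were those of Vipr1, a receptor of vasoactive intestinal peptide (-0.31 ± 0.10 SE, adjusted p = 0.153), and Chrm3, the muscarinic receptor of acinar cells (-0.23 ± 0.11 SE, adjusted p = 0.353). Of 5 measured acid lipases 0 passed (0 at an unadjusted p of 0.05), with Lipa, the lysosomal acid lipase, at 0.19 ± 0.12 (SE, adjusted p = 0.497) and Lipm at -0.16 ± 0.09 (SE, adjusted p = 0.443). Of 7 intracellular triglyceride lipase genes 0 passed (1 at an unadjusted p of 0.05). The median change of the 7 was -0.01, and 4 of the 7 had a lower mean in DKO. Mgll, which splits monoglycerides, was nearest to the threshold (-0.29 ± 0.07 SE, adjusted p = 0.0726), and Ces1d, a carboxylesterase, came next (-0.36 ± 0.18 SE, adjusted p = 0.387). The Mgll change passed the threshold after quantile normalization again (0.0384), without the dimmest 50% of genes (0.0455) and without control replicate 5 (0.0382). Of 13 genes of intestinal fat absorption 0 passed (1 at an unadjusted p of 0.05). Only 3 of the 13 had a lower mean in DKO, and their median change was 0.26. The mean of this list was highest in DKO array 1 (8.07, against 6.68 to 6.94 in the other DKO arrays). The smallest p-values were nevertheless those of genes with a lower mean, the cholesterol transporter gene Npc1l1 (-0.17 ± 0.08 SE, adjusted p = 0.331) and the fatty acid receptor gene Cd36 (-0.42 ± 0.22 SE, adjusted p = 0.408).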

How the data were processed

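Each array was hybridised with labelled cDNA from total pancreas RNA. As deposited, each transcript cluster has 1 log2 intensity per array, made by the authors with Affymetrix Expression Console per the submitters' processing notes. The algorithm and genome build: not given in the sources used here. They were used as deposited. Of 35556 clusters, 21789 had 1 gene symbol, 1621 several and 12146 none here. The first class entered the fit, with the brightest cluster per gene, which left 19938 genes; 21698 of the clusters were matched to RefSeq by gene ID. DKO was set against control by lmFit and eBayes (limma 3.58.1, R 4.3.3; no trend, not robust; threshold 0.05), and this fit was tested on simulated data. The genes, lists and tests were chosen with earlier results of these data known. Named genes were the members, list genes past the threshold (otherwise the 2 with the smallest p), the 3 genes most like each member, and Pla1a. Precision is limited by having 5 arrays in each group. Alternatives were renormalization, filters, variance models, array weights, a replicate block, Xist as covariate, cluster choice and leaving out each array.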

Additional observations from a re-analysis of the deposited data

Results flagged for a closer look

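In 2 of 72 groups of 5 arrays examined (36 genes), 1 array lay far from the other 4 by Dixon's criterion, which chance alone gives in about 1 group of 20. Lipa measured 8.70 in control replicate 3 and 9.04 to 9.18 in the other control arrays. Cdx2, an intestinal transcription factor, measured 5.93 in DKO replicate 5 and 6.14 to 6.20 in the other DKO arrays. None of the 5 lipase and colipase genes met the criterion; the nearest was Pnliprp2 in DKO, where the gap of replicate 1 was 0.656 of the group's range against a critical value of 0.71.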

How the results depend on the processing

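None of the 5 genes passed the threshold under any of the 21 alternatives of the limma fit. Pnliprp2 stayed lower in DKO (-0.41 to -0.25). Leaving out each array moved Pla2g1b from -0.33 to 0.01, the latter without DKO replicate 2. Under quantile normalization the Clps change was 0, since it had the same rank on every array. The number of genes past the threshold, 487 (414 higher), was 298 with unmoderated variance, 178 with the replicate block and 260 to 433 without 1 array (260 and 268 without control replicates 3 and 2, 303, 316 and 324 without DKO replicates 5, 1 and 4); it was 446 (321 higher) after quantile normalization and 374 (271 higher) after subtraction of array medians. The deviations of same-numbered samples gave no sign of pairing (r -0.267 to 0.290). They cannot exclude it, and the labels do not state any pairing. With the replicate block Pnliprp2 was -0.36 (limma adjusted p = 0.175) and Rbpjl -0.45 (0.0552, past the threshold no longer). For the contrasts with Pnliprp1, added after seeing the data, leaving out each array gave -0.35 to -0.22 for Pnliprp2, -0.01 to 0.02 for Clps, -0.02 to -0.01 for Cel and -0.29 to 0.05 for Pla2g1b. With the replicate block the Pnliprp2 contrast was -0.31 (exact p = 0.0625, the smallest it can give). The Cel contrast, -0.02, had the same exact p, and the adjusted p of this exact test was 0.125 for both. The planned Pnlip results were not run, as Pnlip was not analysed. Cluster choice could not move these genes, which have 1 cluster each.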
